A study of Mus musculus with 12 samples.

Results

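The voltage-gated sodium and calcium channel genes were followed in the brain of CBA/N mice, an inbred laboratory strain, kept in winter-like or summer-like rooms. They were taken as every gene whose symbol starts with Scn, a number and a or b, or with Cacn and a, b or g. This gave 40 of the 18962 genes in the table of expression values. Of these, 20 encode pore-forming subunits, 10 sodium alpha and 10 calcium alpha1 subunits. The other 20 encode auxiliary subunits, with 4 sodium beta, 4 calcium alpha2delta, 4 calcium beta and 8 calcium gamma subunits. Winter-like days had 8 h of light and a 16 h night at 10 °C, and summer-like days had 16 h of light and an 8 h night at 30 °C. Light and temperature therefore changed together and their parts cannot be told apart. All mice were wild-type, spent 4 weeks in their room and gave whole brain without cerebellum and olfactory bulb, collected at about the same hour of the early afternoon. There were 4 groups of 3 libraries, male winter, male summer, female winter and female summer. The labels carry the groups as letter codes that they do not spell out, read here as sex and room. Ages were not stated in the labels used here.

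Voltage-gated sodium channels open within a fraction of a millisecond of depolarization and carry the rising phase of the action potential. Voltage-gated calcium channels turn the same depolarization into calcium entry, which drives transmitter release at nerve terminals, dendritic signalling and calcium-dependent transcription. In both families a single long alpha protein forms the pore and carries the voltage sensors, while smaller auxiliary proteins set its trafficking, its surface density and the speed and voltage range of its gating.

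The voltage sensor is the S4 segment, in which arginine or lysine residues recur 3 residues apart between hydrophobic ones. A search of the coding sequences of 21549 genes in the GENCODE M21 annotation looked for runs of at least 4 arginine or lysine codons spaced in this way, with uncharged residues other than asparagine, glutamine and histidine between them. Of these genes, 18 held 4 such stretches, a share of 0.0835%, and all 18 were pore-forming members. Of the other pore-forming members, Scn11a held 3, as did 0.00464% of the genes, and Scn7a held 1, as did 1.13%. None of the 19 auxiliary members with a complete coding model held any, as was the case for 98.7% of the genes. Pore-forming members had 1680 (Scn7a) to 2380 codons (Cacna1g), and auxiliary members had 214 (Scn2b) to 1156 (Cacna2d2). The fourth stretch is shown for 3 sodium alpha subunits of chromosome 2 and for calcium alpha1 subunits of 3 kinds, with the only stretch of Scn7a. Sequences run 5′ to 3′ on the coding strand and arginine and lysine codons are in capitals.
Scn2a: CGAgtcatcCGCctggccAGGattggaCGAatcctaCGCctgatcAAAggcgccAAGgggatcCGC
Scn3a: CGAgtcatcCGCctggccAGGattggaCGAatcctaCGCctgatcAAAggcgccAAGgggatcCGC
Scn1a: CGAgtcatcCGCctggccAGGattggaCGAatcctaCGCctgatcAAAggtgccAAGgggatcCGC
Cacna1e: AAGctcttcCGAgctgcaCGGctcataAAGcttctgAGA
Cacna1c: CGCctcttcCGGgtcatgCGCctggtgAAG
Cacna1g: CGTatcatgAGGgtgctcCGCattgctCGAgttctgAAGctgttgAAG
Scn7a: AAAactatcAGAactttcCGAattttgAAG
Each of these sodium alpha stretches, apart from that of Scn7a, carried 8 charged codons over 66 bases. The Scn2a and Scn3a stretches were the same in every base, and Scn1a differed from them at 1 base. Over whole coding sequences, Scn2a and Scn3a were 84.2% identical, Scn1a and Scn2a 83.2%, and Scn2a and Scn8a 75.5%, so some reads of these genes can be shared in counting. Scn3a, Scn2a, Scn1a, Scn9a and Scn7a lie in that order on chromosome 2 between 65457118 and 66784910 in build GRCm38.p6.

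The values were FPKM, which divide a gene's fragments by its transcript length and by the size of the library. Levels of different genes can thus be set side by side. How far GC content or transcript length still shifts levels between genes was not tested. The depth of the libraries is unknown, and 16859 to 17003 genes were above 0 in each. The labels do not say that libraries of a group came from separate mice, and p-values therefore measure only how far these samples spread, which can be technical. Male and female labels matched the Y-linked gene Ddx3y, at 13.9 FPKM or more in every male library and at most 0.03 in every female one. Markers of neurons were high throughout, with summed levels of 8 pan-neuronal genes between 2748 and 3075 FPKM. Male winter replicate 1 had a summed level of 153 FPKM for 8 cerebellar genes, against 63.0 to 83.2 in the other 11 libraries. Libraries also differed in a trend with transcript GC content, measured as the Spearman correlation over genes between GC content and how far each gene in a library lies from its 12-library mean. This was strongest in female winter replicate 1 (-0.602) and female summer replicate 3 (-0.66) and ranged from -0.218 to 0.547 in the others. In bulk tissue, fewer cells of a type and less RNA per cell cannot be told apart.

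Among sodium alpha subunits, Scn2a, Scn8a and Scn1a made up nearly all of the RNA. Scn2a encodes the channel of excitatory axons and initial segments, and it read 50.9, 47.4 and 48.5 FPKM in the male winter libraries, 50.8, 47.0 and 47.0 in male summer, 57.5, 50.4 and 56.2 in female winter and 46.2, 54.9 and 61.2 in female summer. Scn8a, the main channel of mature initial segments and nodes of Ranvier, read 48.2, 45.3 and 48.0 FPKM in the male winter libraries, 48.3, 48.4 and 46.5 in male summer, 47.0, 49.0 and 51.0 in female winter and 46.4, 48.0 and 50.9 in female summer. Scn1a, the main channel of fast-spiking inhibitory neurons and the gene of Dravet syndrome in humans, read 33.0, 32.2 and 33.6 FPKM in the male winter libraries, 32.5, 30.3 and 30.0 in male summer, 38.4, 36.6 and 41.0 in female winter and 31.6, 39.5 and 41.7 in female summer. Winter and summer overlapped in each sex for all 3 genes, and the highest Scn2a value was that of female summer replicate 3. Scn2a held 34.9% ± 0.922 (SD, n = 12 libraries) of the summed sodium alpha FPKM, Scn8a 32.8% ± 1.66 and Scn1a 23.7% ± 1.22. Scn2a exceeded Scn8a in 10 of 12 libraries and their ranges overlapped, whereas Scn8a exceeded Scn1a in all 12 with no overlap of ranges. Scn3a, a channel best known from the embryonic and newborn brain, averaged 9.29 ± 0.781 FPKM over the 12 libraries. Its group means were 8.63 ± 0.278 FPKM in male winter, 9.31 ± 0.768 in male summer, 9.53 ± 0.369 in female winter and 9.71 ± 1.25 in female summer. Scn9a, best known from pain-sensing neurons, was at 0.91 ± 0.0907 FPKM in male winter, 1.01 ± 0.171 in male summer, 1.10 ± 0.199 in female winter and 1.08 ± 0.106 in female summer. Errors of group means are SDs with n = 3. The 4 remaining sodium alpha genes were below the filter used for testing. Scn7a, a channel that responds to extracellular sodium, was at 0.59 to 1.08 FPKM. Scn11a and Scn10a, channels of sensory ganglia, were at 0.10 FPKM or less in every library, where 6 sensory ganglion markers summed to 6.03 to 8.35 FPKM. Of these markers Calca averaged 2.65, Isl1 1.91, Prph 1.73, P2rx3 0.59, Trpv1 0.055 and Mrgprd 0 FPKM. Scn4a, the channel of skeletal muscle, was at 0.03 FPKM or less.

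The sodium beta subunits were abundant. These single-pass membrane proteins resemble immunoglobulins outside the cell and bind the alpha subunit. Scn2b, which is joined to the alpha subunit by a disulfide bond, read 77.1, 70.6 and 72.7 FPKM in the male winter libraries, 74.7, 75.4 and 73.2 in male summer, 72.6, 75.1 and 71.8 in female winter and 70.8, 73.7 and 69.2 in female summer. Its values lay within 69.2 to 77.1 FPKM in all 12 libraries, and the 4 groups overlapped. Scn4b, also disulfide-linked and prominent in striatum and fast-firing neurons, was at 63.8 ± 4.92 FPKM in male winter, 58.7 ± 7.63 in male summer, 66.6 ± 5.95 in female winter and 64.2 ± 0.0473 in female summer. Its lowest value, 49.9 FPKM, came from male summer replicate 3 and its highest, 72.6, from female winter replicate 3. Scn3b averaged 46.9 ± 2.98 FPKM over 12 libraries.

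Calcium alpha1 subunits were more evenly divided. The presynaptic and R-type genes Cacna1a (P/Q-type), Cacna1b (N-type) and Cacna1e (R-type) together held 54.2% ± 0.98 of the summed alpha1 FPKM, the low-threshold T-type genes Cacna1g, Cacna1h and Cacna1i 31.4% ± 1.29, and the L-type genes 14.4% ± 0.624. Cacna1e was the highest, at 33.7, 33.1 and 31.5 FPKM in the male winter libraries, 33.9, 30.3 and 35.6 in male summer, 33.4, 32.3 and 32.05 in female winter and 29.6, 33.5 and 35.0 in female summer. Cacna1b read 28.9, 25.9 and 29.1 FPKM in the male winter libraries, 27.4, 27.4 and 25.4 in male summer, 24.3, 27.2 and 26.6 in female winter and 27.2, 26.4 and 26.1 in female summer. Cacna1e was above Cacna1b in all 12 libraries with no overlap of ranges, while the groups of each gene overlapped. Cacna1a was at 24.4 ± 2.86 FPKM in male winter, 23.6 ± 0.221 in male summer, 23.9 ± 1.85 in female winter and 23.5 ± 0.194 in female summer. Its highest value, 27.3 FPKM, was in male winter replicate 1, the library with the highest cerebellar marker sum. Without that library the winter minus summer difference of Cacna1a turned from 0.042 to -0.039 in males, on the log2(FPKM + 1) scale. Over both sexes it turned from 0.031 to -0.009. Without male winter replicate 2 it moved the other way, to 0.124 in males and 0.072 over both sexes. The part of cerebellar tissue in these shifts was not tested. Among T-type genes, Cacna1g, strong in thalamic relay cells, averaged 22.1 ± 1.64 FPKM over 12 libraries and exceeded Cacna1i in all 12 without overlap. Cacna1i, known from the thalamic reticular nucleus, was at 13.4 ± 0.614 FPKM in male winter, 13.3 ± 0.915 in male summer, 13.1 ± 1.09 in female winter and 13.3 ± 0.306 in female summer. Cacna1h, also strong in sensory neurons, was at 13.5 ± 0.903 FPKM in male winter, 13.3 ± 0.881 in male summer, 12.2 ± 0.944 in female winter and 12.8 ± 1.35 in female summer. Among L-type genes, Cacna1d, which opens at lower voltages than Cacna1c, was at 9.67 ± 0.337 FPKM in male winter, 9.90 ± 0.62 in male summer, 9.74 ± 0.655 in female winter and 9.54 ± 0.335 in female summer. Cacna1c, at 11.4 to 12.8 FPKM, exceeded Cacna1d in all 12 without overlap. Cacna1s, the channel of skeletal muscle, was at 0.22 to 0.45 FPKM, and Cacna1f, the channel of photoreceptors, at 0.02 to 0.08, both below the filter.

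The alpha2delta subunits sit on the outside of the membrane and raise channel density at synapses, and Cacna2d1 and Cacna2d2 bind the drug gabapentin. Cacna2d1 read 44.7, 47.5 and 42.3 FPKM in the male winter libraries, 47.1, 46.0 and 48.3 in male summer, 51.1, 44.4 and 44.2 in female winter and 46.9, 44.0 and 51.0 in female summer. Its highest values were those of female winter replicate 1 and female summer replicate 3, the libraries with the strongest GC trends. Cacna2d3 read 30.6, 28.4 and 27.9 FPKM in the male winter libraries, 30.4, 31.3 and 31.4 in male summer, 32.2, 32.6 and 32.5 in female winter and 30.1, 34.1 and 33.6 in female summer. Its seasons overlapped in each sex. Cacna2d2 was at 20.5 ± 2.05 FPKM in male winter, 19.3 ± 1.64 in male summer, 19.8 ± 1.15 in female winter and 19.2 ± 0.439 in female summer, with its highest value, 22.8 FPKM, in male winter replicate 1, which had the highest cerebellar marker sum. Without that library the winter minus summer difference of Cacna2d2 in males moved from 0.085 to 0.01 on the log2(FPKM + 1) scale. Without male winter replicate 2 it moved to 0.14, and the part of cerebellar tissue was not tested. Cacna2d1 held 47.3% ± 1.84 of the class, Cacna2d3 31.9% ± 1.43 and Cacna2d2 20.1% ± 1.53, and Cacna2d4, known from retina, was at 0.53 to 0.78 FPKM and below the filter.

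The beta subunits bind the alpha1 subunit inside the cell and bring it to the membrane. Cacnb3 read 72.7, 69.8 and 70.0 FPKM in the male winter libraries, 67.9, 71.6 and 75.6 in male summer, 66.9, 69.2 and 68.1 in female winter and 72.8, 67.0 and 61.0 in female summer. Cacnb1 read 45.7, 44.9 and 52.3 FPKM in the male winter libraries, 45.1, 46.6 and 41.1 in male summer, 37.8, 42.4 and 44.4 in female winter and 45.2, 41.9 and 37.0 in female summer. Winter and summer overlapped in each sex for both genes. Cacnb3 exceeded Cacnb1 in all 12 libraries without overlap, and the lowest Cacnb1 values were again those of the 2 libraries with the strongest GC trends. Cacnb4, the gene mutated in the lethargic mouse, was at 34.4 ± 1.98 FPKM in male winter, 34.6 ± 1.23 in male summer, 36.2 ± 1.57 in female winter and 35.3 ± 4.26 in female summer. Cacnb2, the main beta subunit of heart, was at 14.8 ± 0.48 FPKM in male winter, 14.9 ± 0.408 in male summer, 16.1 ± 0.56 in female winter and 15.4 ± 1.27 in female summer. Cacnb3 held 42.4% ± 1.55 of the class, Cacnb1 26.7% ± 1.93, Cacnb4 21.5% ± 1.81 and Cacnb2 9.38% ± 0.709.

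The gamma genes are mixed in function, since several encode TARPs, the proteins that carry AMPA-type glutamate receptors to synapses. Cacng7, an atypical TARP, read 71.8, 61.5 and 73.7 FPKM in the male winter libraries, 71.0, 66.9 and 60.4 in male summer, 59.1, 65.3 and 70.0 in female winter and 61.4, 61.8 and 54.4 in female summer. Cacng3, a TARP of forebrain, read 63.6, 62.7 and 58.0 FPKM in the male winter libraries, 62.6, 58.1 and 53.7 in male summer, 57.8, 56.5 and 52.4 in female winter and 61.1, 50.4 and 52.2 in female summer. Winter and summer overlapped in each sex for both genes. Cacng7 exceeded Cacng3 in 11 of 12 libraries and their ranges overlapped. Cacng2 (stargazin), the founding TARP, was at 19.4 ± 0.885 FPKM in male winter, 19.5 ± 0.235 in male summer, 19.1 ± 0.334 in female winter and 18.7 ± 0.896 in female summer. Cacng4, a TARP also known from glia, was at 10.9 ± 0.801 FPKM in male winter, 9.78 ± 1.3 in male summer, 11.0 ± 2.09 in female winter and 10.9 ± 0.92 in female summer. Cacng5, the other atypical TARP, was at 7.09 ± 1.01 FPKM in male winter, 7.08 ± 0.685 in male summer, 7.85 ± 0.538 in female winter and 7.77 ± 0.584 in female summer. Cacng8 averaged 20.2 ± 1.50 FPKM over 12 libraries and Cacng6 averaged 5.82 ± 0.87. Cacng1, the gamma subunit of skeletal muscle, was at 0.37 FPKM or less and below the filter, where 7 skeletal muscle markers summed to 4.13 to 5.49 FPKM. Most of that sum was Acta1, which averaged 3.77 FPKM, and the next highest marker was Mylpf at 0.608. Cacng7 held 34.9% ± 1.71 of the class and Cacng3 30.9% ± 1.73.

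**Figure D1:**
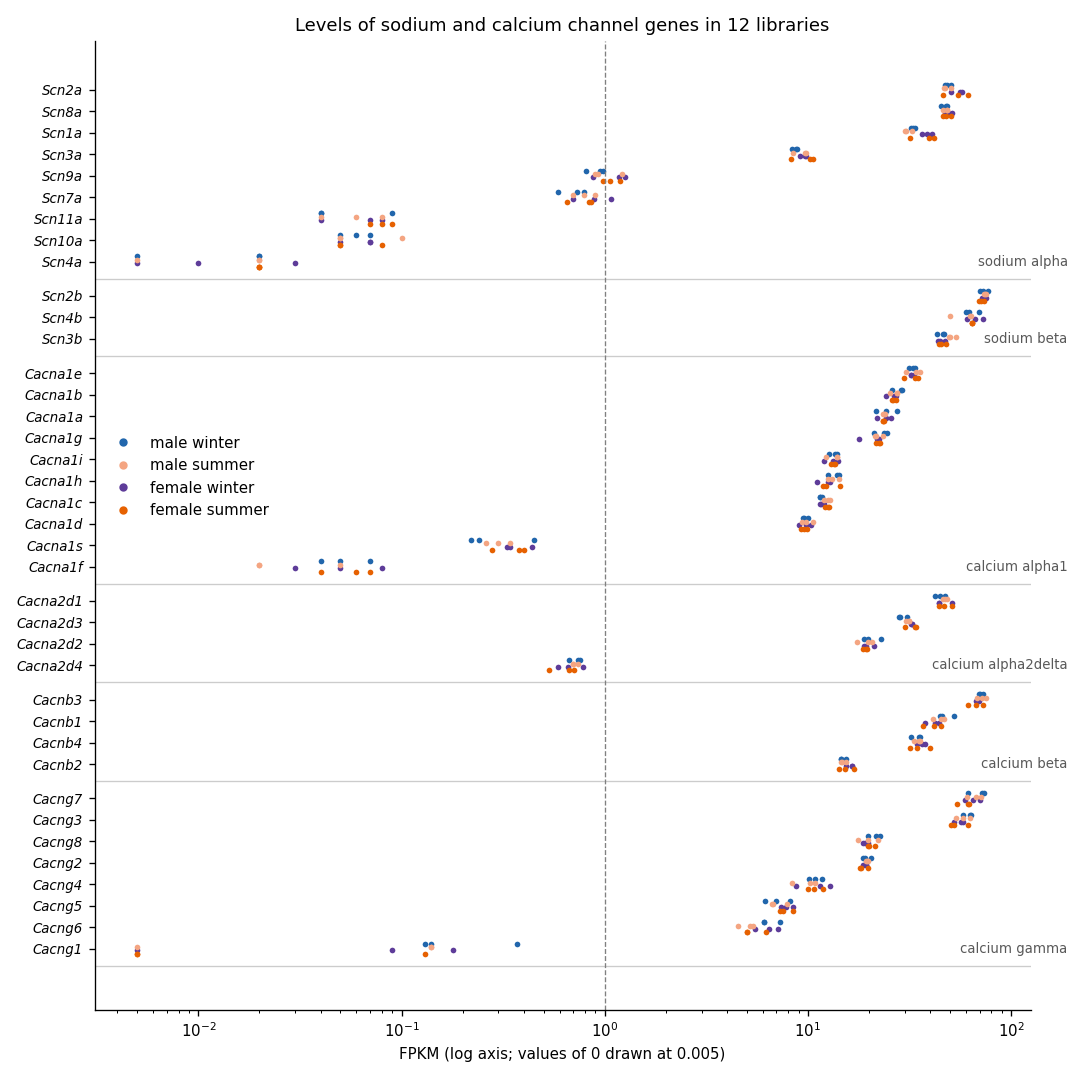
FPKM of the channel genes described here in each of the 12 libraries (log axis; values of 0 are drawn at 0.005 and the dashed line marks 1 FPKM), in 6 subunit classes ordered by mean and coloured by group. The 4 groups of most genes lie on top of each other, and the 8 genes below the filter sit at 1.08 FPKM or less.

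The summed FPKM of auxiliary members was above that of pore-forming members in both families. Summed beta FPKM over summed alpha FPKM gave a sodium ratio of 2.58 ± 0.233 (SD, n = 12), and summed auxiliary over alpha1 FPKM gave a calcium ratio of 2.91 ± 0.0885. The calcium auxiliary sum, 447 FPKM on average, includes the gamma genes, several of which encode TARPs of AMPA receptors. Cacng7 gave 64.8 and Cacng3 57.4 FPKM of it. The calcium ratio is therefore not a ratio of calcium channel subunits alone. By group, the sodium ratio was 2.74 ± 0.0252 in male winter, 2.69 ± 0.0757 in male summer, 2.44 ± 0.189 in female winter and 2.43 ± 0.369 in female summer (SD, n = 3). The calcium ratio was 2.92 ± 0.0666, 2.89 ± 0.0833, 2.97 ± 0.112 and 2.84 ± 0.0794 in the same order. Winter and summer values of both ratios overlapped in each sex.

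The sodium ratio varied most among female libraries, from 2.10 in female summer replicate 3 to 2.83 in female summer replicate 1. Libraries with the most negative GC trend had the lowest sodium ratios, 2.29 in female winter replicate 1 and 2.10 in female summer replicate 3. Libraries also differed in a trend with transcript length, measured in the same way as that with GC content. It was -0.374 in female summer replicate 1, 0.272 in female summer replicate 3 and -0.012 in female winter replicate 1. The part of length in the sodium ratio was not tested. After correction of each library for transcript GC content, added after seeing the data, the SD of the log2 sodium ratio over 12 libraries was 0.0626, against 0.135 before. The group means of that log2 ratio were then 1.37 in male winter, 1.42 in male summer, 1.35 in female winter and 1.33 in female summer, against 1.45, 1.43, 1.28 and 1.27 before.

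**Figure D2:**
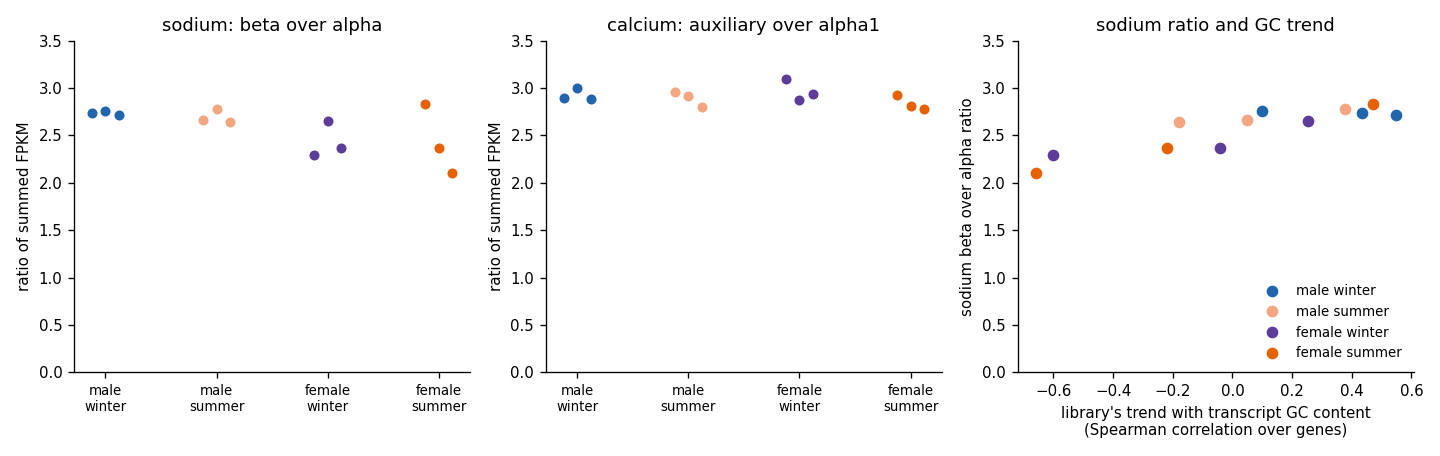
Ratio of summed auxiliary to summed pore-forming FPKM in each library, for sodium channels (left) and calcium channels (middle) by group, and the sodium ratio against each library's Spearman correlation with transcript GC content (right). The calcium ratio stays between 2.78 and 3.09, and the 2 libraries at -0.602 and -0.66 on the right have sodium ratios of 2.29 and 2.10.

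The first comparison asked whether channel RNA differed between the winter-like and the summer-like room. Of the 40 members, 32 passed the filter of at least 1 FPKM in at least 3 libraries, 14 pore-forming and 18 auxiliary. No member was called with limma at an adjusted p under 0.05 for season over both sexes, where 0.00765% of the 13071 genes tested were called. At an unadjusted p under 0.05 there were 3 members, Cacng6, Cacna1c and Scn3b, which is 9.38% of 32 against 4.88% of all genes. The 95% intervals of the season change bounded what these data allow. Over the 14 pore-forming members they lay between -0.185 (Scn3a) and 0.195 (Scn1a) on the log2(FPKM + 1) scale, or 0.88-fold to 1.14-fold. Over the 18 auxiliary members they lay between -0.177 (Scn3b) and 0.412 (Cacng6), or 0.88-fold to 1.33-fold. All season differences are winter minus summer on that scale, which understates the change of low genes, and are given with the standard error of the fit.

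Cacng6, a gamma subunit gene on chromosome 7 (3423588 to 3435667 in GRCm38.p6), had the smallest season p of the members. It read 7.31, 6.08 and 6.06 FPKM in the male winter libraries, 5.38, 5.19 and 4.51 in male summer, 6.43, 7.12 and 5.52 in female winter and 6.23, 4.99 and 5.00 in female summer. Every male winter value was above every male summer value, and the female groups overlapped. The season difference was 0.26 ± 0.07 over both sexes (limma adjusted p = 0.956), 0.31 ± 0.10 in males (adjusted p = 0.933) and 0.20 ± 0.10 in females (adjusted p = 1). Over both sexes it ranged from 0.22 to 0.30 when each library was left out in turn, and it was 0.25 after GC correction. Its neighbours Cacng7 (3332027 to 3368221) and Cacng8 (3394042 to 3416266) lie in the same cluster. The winter and summer values of Cacng7, listed above, overlapped in each sex, and its season difference was 0.09 ± 0.06 (adjusted p = 0.997). Cacng8, a TARP strong in hippocampus, had a season difference of 0.01 ± 0.06 over both sexes (adjusted p = 0.997).

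Cacna1c, the main L-type channel of brain and heart and a psychiatric risk gene in humans, was lower in winter in each sex without reaching the threshold. It read 11.7, 11.5 and 11.4 FPKM in the male winter libraries, 12.6, 12.8 and 11.9 in male summer, 11.5, 11.6 and 12.1 in female winter and 12.1, 12.7 and 12.6 in female summer. Within each sex every winter value was below every summer value, but in females the nearest values were 12.07 and 12.08 FPKM. Across the sexes female winter replicate 3, at 12.1 FPKM, was above male summer replicate 3, at 11.9. The season difference was -0.09 ± 0.04 over both sexes, 0.94-fold (limma adjusted p = 0.997), and -0.10 and -0.08 in males and females. It ranged from -0.10 to -0.08 when each library was left out. Cacna1c also had the smallest spread within groups of any tested member, an SD of 0.036 on the log2 scale, against a median of 0.099 over the 32 members and 0.10 over all genes tested.

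Scn3b encodes a beta subunit that binds the alpha subunit without a covalent bond. It read 43.4, 46.6 and 46.5 FPKM in the male winter libraries, 49.9, 49.7 and 53.4 in male summer, 47.4, 44.7 and 43.7 in female winter and 45.4, 44.2 and 48.0 in female summer. All male summer values were above all 9 other values. The season difference was -0.16 ± 0.06 in males (limma adjusted p = 0.972), -0.02 ± 0.06 in females (adjusted p = 1) and -0.09 ± 0.04 over both (limma adjusted p = 0.997). The difference between the sexes was tested directly and was 0.14 ± 0.08 (limma adjusted p = 0.999).

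**Figure D3:**
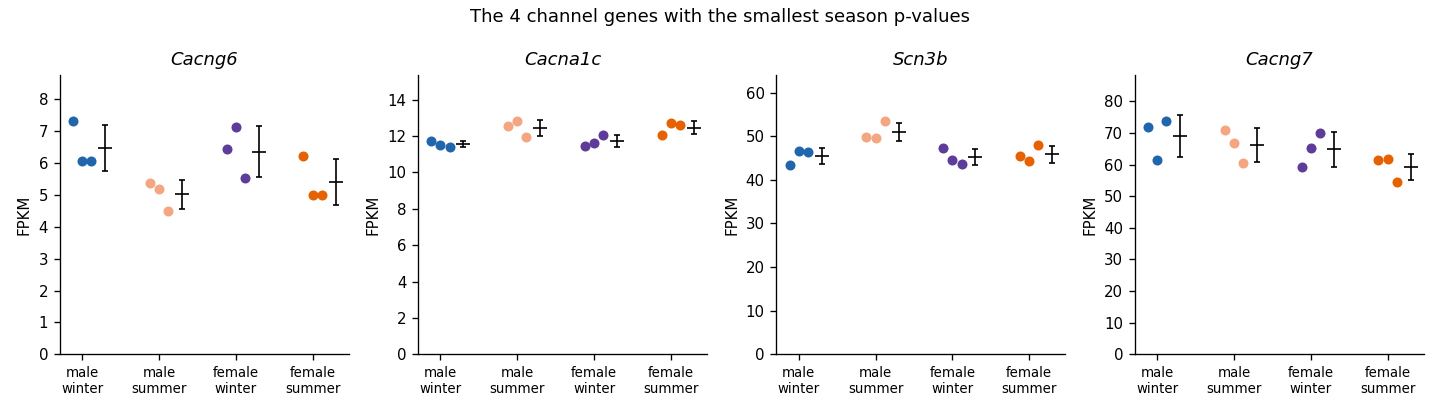
FPKM in each library of Cacng6, Cacna1c, Scn3b and Cacng7, the 4 channel genes with the smallest season p over both sexes; points are libraries and bars show the mean ± SD of 3 libraries. For Cacng6 and Scn3b the male seasons do not overlap, and for Cacna1c the seasons do not overlap in either sex (winter 11.4 to 11.7 against summer 11.9 to 12.8 FPKM in males).

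Pore-forming and auxiliary members were then set side by side. The median season difference was -0.005 over the 14 pore-forming and 0.022 over the 18 auxiliary members, on the log2 scale, against -0.003 over all genes tested. The difference was above 0 for 5 of 14 pore-forming members and for 15 of 18 auxiliary members, where 47.9% of all genes were above 0. By class, it was above 0 for 3 of 6 sodium alpha genes (median -0.002), 2 of 8 calcium alpha1 genes (-0.008), 3 of 4 sodium beta genes (0.036), 1 of 3 alpha2delta genes (-0.047), 4 of 4 calcium beta genes (0.022) and 7 of 7 gamma genes (0.054). In males alone the calcium beta count was 1 of 4 (median -0.008) and the gamma count 5 of 7 (0.08), and in females 4 of 4 (0.034) and 6 of 7 (0.029). The counts were not stable. Without male winter replicate 2 there were 10 pore-forming members above 0, and 9 without the 2 libraries with strong GC trends. Without female winter replicate 1 or replicate 2 there were 8, as also with length correction or sample weights. The auxiliary count was 11 without male winter replicate 1 or without female summer replicate 3. In males it was 9 of 18 auxiliary members, against 48% of all genes, and in females 14 of 18, against 48.3%. The pore-forming counts were 8 of 14 in males and 6 of 14 in females.

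**Figure D4:**
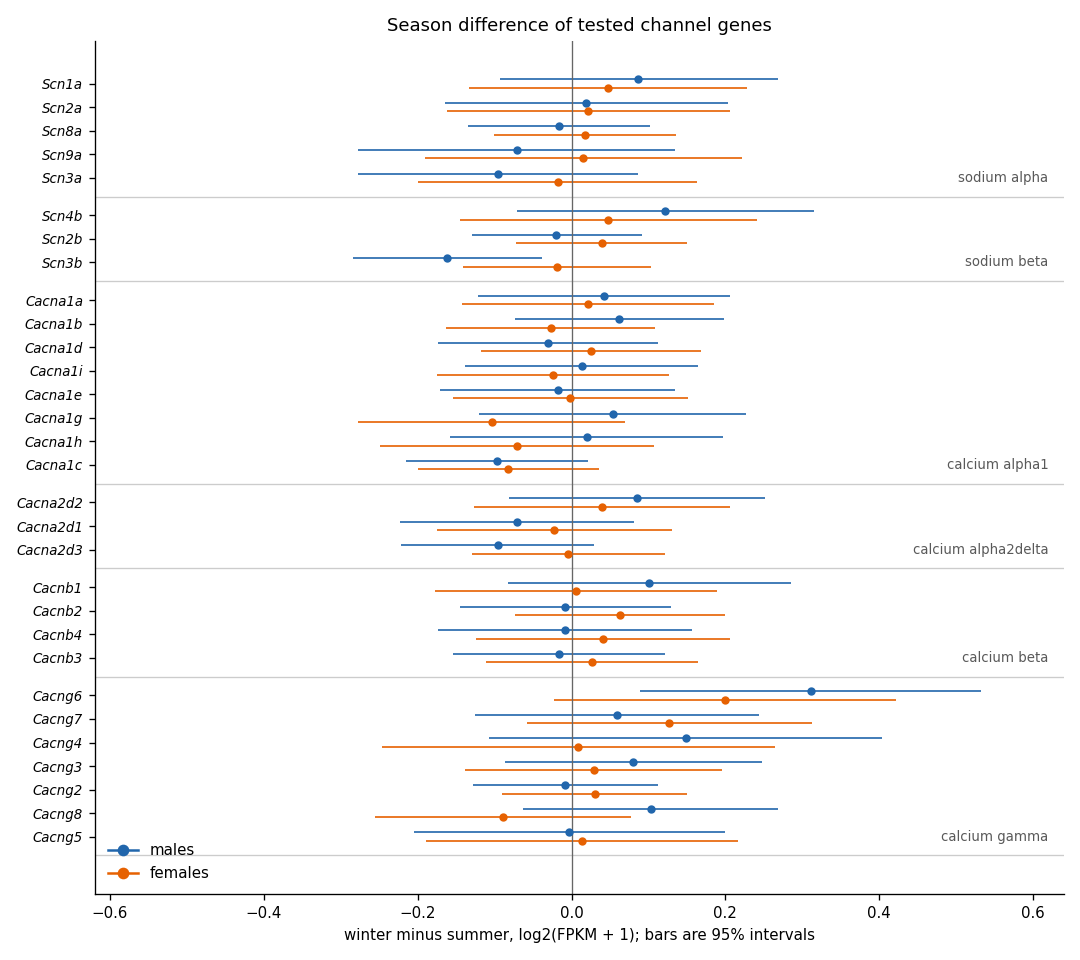
Winter minus summer difference of the tested channel genes described here, on the log2(FPKM + 1) scale, in males and in females, with 95% intervals from limma and genes ordered by the difference over both sexes within each class. All intervals shown lie between -0.284 and 0.533, and only those of Cacng6 and Scn3b in males leave out 0.

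Within the sexes, no member was called with limma for season in males (0.00765% of all genes called) or in females (0% called). At an unadjusted p under 0.05 there were 2 members in males, Cacng6 and Scn3b, 6.25% of 32 against 5.01% of all genes. Without male winter replicate 1, which had the highest cerebellar marker sum, there were 0 in males. The male season difference then moved from 0.311 to 0.233 for Cacng6 and from -0.162 to -0.129 for Scn3b. The male count was 1 without male summer replicate 3 and 3 without male summer replicate 2. Leaving out a library also leaves fewer in its group, and the part of cerebellar tissue was not tested. With all libraries, 0 members had an unadjusted p under 0.05 in females, against 1.74% of all genes. Winter and summer did not overlap for 4 members in males, against 12.6% of all genes. Of these 2 were higher in winter, Cacng6 among them, as were 6.12% of all genes, and Scn3b and Cacna1c were lower, as were 6.53%. In females this held for 2 members, Cacna1c and Cacng8, against 4.2% of all genes, and both were lower in winter, as were 2.28%. With 3 libraries against 3, an exact permutation test cannot go below p = 0.1. Cacna2d3 had a difference of -0.10 ± 0.06 in males (adjusted p = 0.974) and its seasons overlapped in both sexes.

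No member was called for the difference of the season change between the sexes with limma, where 0% of all genes were called, and 0 had an unadjusted p under 0.05 against 1.8% of all genes. Cacng8 read 21.7, 19.8 and 22.6 FPKM in the male winter libraries, 19.9, 22.2 and 17.6 in male summer, 19.7, 18.6 and 19.1 in female winter and 20.0, 21.4 and 19.8 in female summer. Its female winter values were all below its female summer values, while the male seasons overlapped. The female minus male season difference was -0.19 ± 0.11 (limma adjusted p = 0.999), and -0.06 after GC correction. Cacna1g read 23.7, 21.1 and 24.4 FPKM in the male winter libraries, 21.4, 23.4 and 21.7 in male summer, 17.9, 22.5 and 21.8 in female winter and 22.7, 22.4 and 21.7 in female summer. Female winter replicate 1 was the lowest, at 17.9 FPKM. The female minus male season difference of Cacna1g was -0.16 ± 0.11 (limma adjusted p = 0.999), and -0.06 without female winter replicate 1. Its season difference in females was -0.10 ± 0.08 (adjusted p = 1), and -0.01 without that library.

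Sex over both seasons was compared as female minus male. With limma no member was called, where 0.0612% of all genes were called, and 4 members had an unadjusted p under 0.05, 12.5% of 32 against 11.6% of all genes. They were Scn1a, Cacna2d3, Scn2a and Cacnb1. For Scn1a, 5 of 6 female values were above every male value, and female summer replicate 1, at 31.6 FPKM, lay within the male range of 30.0 to 33.6. The difference was 0.24 ± 0.06, 1.18-fold, with a 95% interval of 0.12 to 0.37 (limma adjusted p = 0.291). Scn1a passed the threshold without female summer replicate 1 (0.30, adjusted p = 0.0103) and with gene-by-gene sample weights (0.28, adjusted p = 0.0178). Leaving out that library raised the number of all genes called from 8 to 136, and the weights raised it to 218. Female summer replicate 1 had a GC trend of 0.472, against -0.66 to 0.252 in the other 5 female libraries and -0.18 to 0.547 in the male ones. Its trend with transcript length, measured in the same way, was -0.374, against -0.298 to 0.272 in all other libraries. With length correction 0 members were called for sex over both seasons. After GC correction the Scn1a difference was 0.195 (adjusted p = 0.291).

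Scn2a, of the same chromosome 2 cluster, had 4 of 6 female values above every male value, and female summer replicate 1 was the lowest of all 12, at 46.2 FPKM. Its difference was 0.15 ± 0.06 (limma adjusted p = 0.399), and 0.11 after GC correction. For Cacna2d3, 5 of 6 female values were above every male value, with a difference of 0.11 ± 0.04 (adjusted p = 0.394). For Cacnb1 the sexes overlapped, with a difference of -0.15 ± 0.06 (adjusted p = 0.406) and of -0.05 after GC correction. The part of the GC trend in these differences was not tested beyond that correction. For Scn8a the female minus male difference was 0.04 ± 0.04, with a 95% interval of -0.05 to 0.12.

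**Figure D5:**
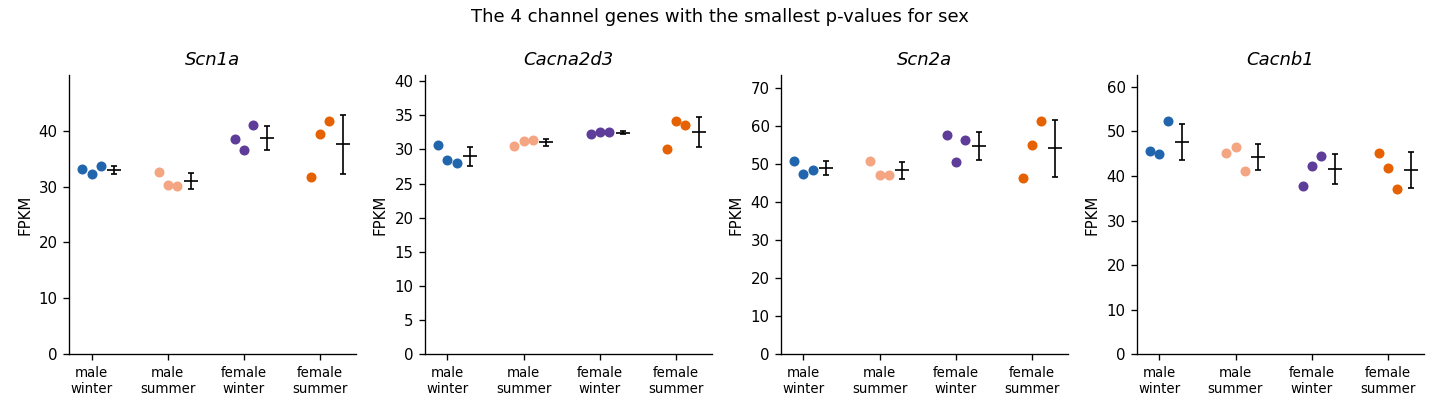
FPKM in each library of Scn1a, Cacna2d3, Scn2a and Cacnb1, the 4 channel genes with the smallest p for sex over both seasons; points are libraries and bars show the mean ± SD of 3 libraries. For Scn1a, 5 of 6 female libraries lie above the male range of 30.0 to 33.6 FPKM, and female summer replicate 1 lies within it.

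Genes that work with these channels were read in the same fit. For season over both sexes, 47.9% of all genes were above 0, 4.88% had an unadjusted p under 0.05 and 0.00765% were called. Of 19 sodium channel partners, which include the ankyrins, the node of Ranvier adhesion proteins and the intracellular FGFs, 9 were above 0 and 10 below for season over both sexes, and none was called with limma (0 at an unadjusted p under 0.05). The smallest p-values were those of Cntn2, an axonal adhesion protein, at 0.06 ± 0.04 and Nfasc, a node and initial segment protein, at -0.05 ± 0.04. Of 25 calcium channel partners 20 were tested, with 9 above 0, 11 below and none called (0 at an unadjusted p under 0.05). Stac2, which binds L-type channels, was at 0.12 ± 0.06 (adjusted p = 0.997), and Cabp1, a calcium-binding regulator of these channels, at 0.08 ± 0.06. Of 11 AMPA receptor genes and their partners, 3 were above 0, 8 below and none called (0 at an unadjusted p under 0.05), with Shisa9 at -0.07 ± 0.04 and Shisa7 at -0.07 ± 0.06. In the list of related channels, none of 8 tested genes was called, and the smallest p-values were those of Unc79, a subunit of the sodium leak channel, at -0.06 ± 0.04 and Catsper2, a sperm channel gene, at 0.07 ± 0.07. For sex over both seasons no gene of these lists was called either. At an unadjusted p under 0.05 there were 3 of 19 sodium channel partners, 1 of 20 calcium channel partners, 3 of 11 AMPA receptor genes or partners and 1 of 8 related channels, against 11.6% of all genes.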

How the data were processed

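RNA was measured in 12 libraries, 3 for each of 4 groups. Strand-specific paired-end libraries were made from poly-A RNA, per the labels' protocols. HISAT, RSEM and build GRCm38.p6 come from the submitters' processing notes; for both tools the version is "not given in the sources used here". What the authors deposited are FPKM values. FPKM is scaled within a library, and each difference is therefore relative to the other genes of its library. Whole reads could not be recovered from the low values (40.8% of 4655 cases were whole multiples within rounding, against 26.9% by chance), so no interval for counting error is given. RSEM can share reads between similar genes.

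Values were taken as log2(FPKM + 1), with a pseudocount of 1. Genes at 1 FPKM or more in at least 3 libraries were fitted together with limma 3.58.1 in R 4.3.3, with a mean for each of 4 groups, which left 8 residual degrees of freedom. Empirical Bayes variances followed a trend with level, tests were two-sided, and p-values were adjusted by Benjamini-Hochberg over 13071 genes, with a threshold of 0.05. The fit was also run on simulated data with independent normal noise for each gene. Those data held no GC or length trends shared within a library, and the outcome is not reported here. All 40 members matched the RefSeq annotation of GRCm38.p6, which gave coordinates; coding sequences and GC content came from GENCODE M21, where 12940 of the tested genes (99%) had a GC value. Shares and ratios were sums of FPKM per library. Python 3.11.15, pandas 2.3.3, numpy 2.4.6, Biopython 1.88 and matplotlib 3.10.9 were used.

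The members, marker lists and partner lists were chosen with earlier results of these data known. Values in every library are given for the 2 highest members of each class and for the 4 members with the smallest p in each contrast, and group values for the other tested members; some members and sequences are not reported here. Of each partner list, the 2 genes with the smallest season p are named. As alternatives, the filter, pseudocount, variance model and 3 scalings were changed, GC content or length was corrected, samples were weighted, the replicate number was a block, libraries were left out, and the sexes were fitted separately. The GC-corrected ratio was chosen after seeing the data. The replicate numbers of the labels were not used as pairs, since the labels do not tie them to shared animals, litters or days.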

Additional observations from a re-analysis of the deposited data

How the results depend on the processing

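Across the alternatives, members named for a small p kept their direction and their side of the threshold in 506 cases, and in 2 passed it. The number of members called stayed at 0 in 125 cases and moved in 2. For sex over both seasons 1 member, Scn1a, was called with gene-by-gene sample weights and without female summer replicate 1. The class medians are close to 0, and their sign differed from the reported one in 38 of 254 cases. With GC correction, alone or with the replicate block, the pore-forming median was -0.017 for season in males and 0.018 for sex, and the auxiliary median for sex was 0.021. Without the 2 libraries with strong GC trends the pore-forming median was 0.032 for season in females and 0.036 for its difference between the sexes. Leaving out each library in turn, the season median in males ranged from -0.020 to 0.033 (pore-forming) and from -0.011 to 0.082 (auxiliary), and the median of the difference between the sexes from -0.035 to 0.030 and from -0.024 to 0.055. As a difference of mean log2(FPKM + 1), which gives low genes the same weight as high ones, the log2 auxiliary to pore-forming ratio was 2.67 for sodium and 0.47 for calcium channels, against 1.36 and 1.54 from sums. The cause of the other shifts was not tested.

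Whether the replicate numbers pair the libraries is not settled by these data. For each library, the deviation of every gene from its group mean was taken. These deviations were correlated over genes between libraries of different groups. Of 18 such correlations between same-numbered libraries, 6 were over 0.1, with a range from -0.229 to 0.242. Between libraries of different numbers and groups the correlations ranged from -0.322 to 0.341. With the replicate block 0 members were called in any contrast, and for sex the number of all genes called was 12 against 8. Depth is unknown, and values under 1 FPKM were not tested.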
